A study of Caenorhabditis elegans with 2 samples.

Results

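Of 19644 regions in the pooled list of CEH-22 chromatin immunoprecipitation sequencing (ChIP-seq) in late Caenorhabditis elegans embryos, 2972 were autosomal intergenic regions far from promoters. A region belonged to this set when its summit lay on chromosomes I to V, outside every protein-coding gene span, and not in the stretch from 1000 bp upstream to 200 bp downstream of any protein-coding 5′ end. The 5′ ends and gene spans were those of Ensembl release 115 on build WBcel235 (ce11). No measured binding value entered this choice. The authors label the pooled list as peaks and background, so a region in it need not be a bound site. The other pooled regions were 3916 in promoters, 4365 in introns, 4215 in coding exons and 480 in untranslated exons of autosomes, with 3686 on the X chromosome and 10 on the mitochondrial genome.

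The study comprised 2 biological replicates that form 1 group, whole late embryos of mixed sex from strain OP389. The strain carries the unc-119(tm4063) III mutation and the integrated transgene wgIs389, which makes CEH-22 with GFP and FLAG at its C-terminus. Sonicated chromatin was precipitated with an antibody labelled ceh-22, and whether it binds the tag is not stated. Whole animals were used, so regions bound in a few cells and regions bound weakly in many cells cannot be told apart, and no cell type could be checked against its markers in these lists. No control sample was analysed here, and there was no other condition.

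The homeodomain protein CEH-22 is a DNA-binding transcription factor in the NK-2 family, with Tinman of Drosophila and Nkx2-5 of vertebrates among its relatives. It is known for its role in pharyngeal muscle, where it binds an enhancer of the pharyngeal myosin gene myo-2. NK-2 proteins favour sites with the core CAAGTG, most often preceded by T. Regulatory elements in the compact worm genome mostly lie close to the genes they serve, but some lie far from any 5′ end, between genes or beside non-coding RNA genes.

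A total of 8 of the strongest intergenic regions had the NK-2 site TCAAGTG within 100 bp of the summit, and the windows of the 6 that lie on chromosomes II to V are printed below because they hold the sequence that the protein class is known to bind. They are oriented so that the site, in capitals, reads 5′ to 3′, with 27 bases on each side, and were read from the RefSeq genome sequence of WBcel235. The sup-37 site window is chrV:8784668-8784728 (minus strand). At K10D11.7 the window is chrIV:12999229-12999289 (plus strand). The hsp-12.2 site window is chrIII:8136662-8136722 (minus strand). At hil-7 the window is chrIV:6648814-6648874 (minus strand). The C46F11.6 site window is chrIII:3673040-3673100 (minus strand). At T24H7.9 the window is chrII:6234387-6234447 (plus strand).
sup-37: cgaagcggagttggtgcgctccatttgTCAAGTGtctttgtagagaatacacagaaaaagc
K10D11.7: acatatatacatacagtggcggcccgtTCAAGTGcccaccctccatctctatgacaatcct
hsp-12.2: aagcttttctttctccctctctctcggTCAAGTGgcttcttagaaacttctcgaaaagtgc
hil-7: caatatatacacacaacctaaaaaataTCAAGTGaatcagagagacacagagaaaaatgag
C46F11.6: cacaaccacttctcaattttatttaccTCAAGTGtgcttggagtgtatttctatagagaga
T24H7.9: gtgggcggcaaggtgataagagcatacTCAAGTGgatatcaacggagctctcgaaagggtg

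The intergenic regions ranked next after the strongest lay at a pair of microRNA genes of 1 family, and a weaker region lay at another gene of that family. Their mature products, read at RefSeq's coordinates on chromosome IV, follow with the seed (bases 2 to 8) in capitals. The mir-51 product lies at chrIV:11026074-11026096 (minus strand), the mir-52 product at chrIV:14034024-14034047 (plus strand) and the mir-53 product at chrIV:11027653-11027676 (minus strand). All of these share the seed ACCCGTA.
mir-51 a: tACCCGTAgctcctatccatgtt
mir-52 a: cACCCGTAcatatgtttccgtgct
mir-53 a: cACCCGTAcatttgtttccgtgct
The 201-base window around the summit at mir-52, chrIV:14033938-14034138 (plus strand), has the annotated hairpin gene in capitals, and the summit is its central base.
mir-52 region: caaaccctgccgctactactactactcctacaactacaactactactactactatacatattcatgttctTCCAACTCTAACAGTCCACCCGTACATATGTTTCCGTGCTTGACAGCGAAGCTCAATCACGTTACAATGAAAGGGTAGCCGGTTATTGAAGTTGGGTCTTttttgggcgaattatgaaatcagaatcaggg

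Runs of alternating G and A, read as C and T on the other strand, held the 7-base sequence with the largest difference in share between the strongest intergenic regions and the others, and 3 windows of 201 bases centred on the summit show their layout. The T04C4.3 window is chrIV:2219535-2219735, the hif-1 window is chrV:20778324-20778524 and the pptr-1 window is chrV:16355985-16356185, all on the plus strand, with each GAGAGAG or CTCTCTC, overlapping ones joined, in capitals. A single alternating base beside such a stretch stays in lower case.
T04C4.3: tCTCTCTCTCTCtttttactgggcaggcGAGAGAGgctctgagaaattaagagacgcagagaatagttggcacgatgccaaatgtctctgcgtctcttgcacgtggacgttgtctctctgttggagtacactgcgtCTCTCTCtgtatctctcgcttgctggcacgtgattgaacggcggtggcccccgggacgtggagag
hif-1: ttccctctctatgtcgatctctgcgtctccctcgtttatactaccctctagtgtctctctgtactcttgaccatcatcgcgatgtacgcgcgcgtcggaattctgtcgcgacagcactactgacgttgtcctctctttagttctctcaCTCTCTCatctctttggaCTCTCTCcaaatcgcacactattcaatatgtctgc
pptr-1: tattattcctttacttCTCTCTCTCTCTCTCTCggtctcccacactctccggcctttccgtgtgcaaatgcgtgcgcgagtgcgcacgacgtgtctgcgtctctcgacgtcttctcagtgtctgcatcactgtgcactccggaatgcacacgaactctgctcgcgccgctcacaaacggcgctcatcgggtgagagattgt

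The strongest intergenic region of all held no TCAAGTG and no GA repeat in its window, chrIII:13062524-13062724 (plus strand), and is shown as the top of the ranking. It does hold the shorter core CAAGTG, on the minus strand. Its nearest 5′ end belongs to F54F12.1. A region beside the small nucleolar RNA (snoRNA) gene ZK643.9 is shown for the class of regions at short RNA genes, with the annotated RNA gene in capitals (chrIII:8937639-8937839, plus strand). A region at a tRNA gene near mstr-2 (chrIII:4470862-4471062, plus strand) is given in the same way, and that gene lies on the minus strand.
F54F12.1: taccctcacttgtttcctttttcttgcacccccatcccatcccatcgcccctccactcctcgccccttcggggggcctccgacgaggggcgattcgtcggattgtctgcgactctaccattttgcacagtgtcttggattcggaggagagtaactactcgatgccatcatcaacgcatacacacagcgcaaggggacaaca
ZK643.9: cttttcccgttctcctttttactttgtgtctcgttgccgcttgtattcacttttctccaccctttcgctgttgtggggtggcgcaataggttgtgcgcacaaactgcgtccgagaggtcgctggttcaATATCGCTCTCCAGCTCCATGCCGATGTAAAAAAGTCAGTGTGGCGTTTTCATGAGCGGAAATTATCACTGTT
tRNA near mstr-2: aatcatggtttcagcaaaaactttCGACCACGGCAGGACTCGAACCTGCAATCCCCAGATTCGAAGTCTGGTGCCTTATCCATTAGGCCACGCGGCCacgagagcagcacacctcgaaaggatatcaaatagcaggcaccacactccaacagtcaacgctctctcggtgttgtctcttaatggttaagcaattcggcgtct

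Intergenic regions reached the thresholded list about as often as promoter regions. Their signal values, which the authors gave on an unstated scale, ran between 9.33 and 84.6 in the pooled list, with a median of 12 and quartiles of 10.4 and 14.9. This list, made by the authors from the pooled and replicate lists with a test of reproducibility between rankings (irreproducible discovery rate, IDR), held 285 regions and consisted of the pooled regions ranked 1 to 285 by signal value. A total of 62 of 2972 intergenic regions were in it, or 2.09% (95% Wilson interval 1.63% to 2.67%), beside 1.45% of all pooled regions. The share was 1.11% (0.943% to 1.31%) over the other 12976 autosomal regions, 2.15% (1.74% to 2.65%) in promoters and 1.26% (0.969% to 1.64%) in introns. Coding exons had 2 thresholded regions of 4215, or 0.0474% (0.0130% to 0.173%), and the X chromosome had 71 of 3686, or 1.93% (1.53% to 2.42%). The intervals of intergenic and promoter regions overlapped, and that of introns reached the intergenic one narrowly. Those of intergenic regions and of the other autosomal regions together did not overlap. These other regions include the coding exons, whose 2 of 4215 lower the joint share.

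**Figure D1:**
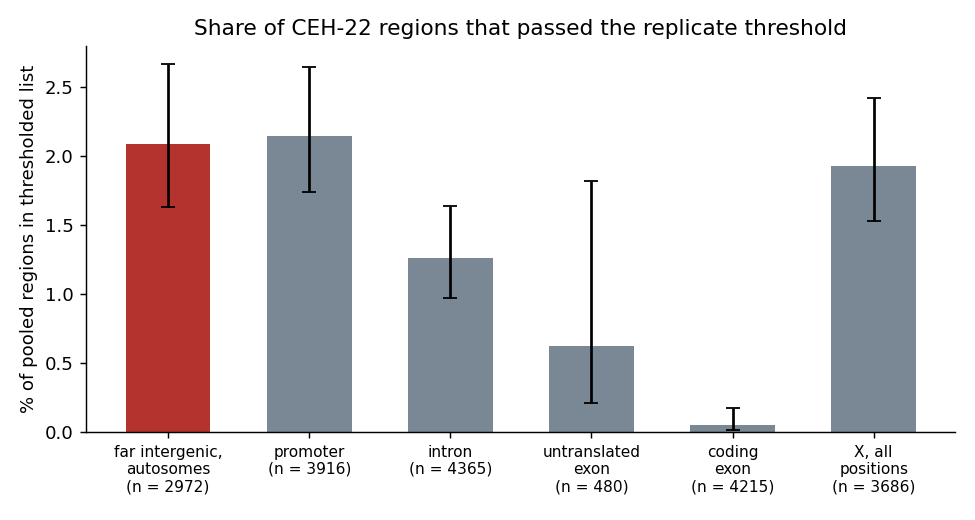
Share of pooled regions in the thresholded list (y axis, %) for autosomal intergenic regions far from promoters (red, left) and for the other position classes (grey). Error bars are 95% Wilson intervals. The intergenic bar stands at 2.09%, the promoter bar at 2.15%, the intron bar at 1.26% and the coding exon bar at 0.0474%.

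The intervals cover counting error only, since regions are not replicates, and with 1 group of 2 samples no test between position classes was made. In each replicate's own list intergenic regions again stood above the other autosomal regions as a whole. Of the regions that the rule placed in intergenic sequence, 57 of 4876 (1.17%, 0.903% to 1.51%) were among the 285 strongest of replicate 1 and 58 of 4639 (1.25%, 0.968% to 1.61%) among the 285 strongest of replicate 2. The other autosomal regions reached 0.786% (0.671% to 0.921%) in replicate 1 and 0.796% (0.681% to 0.930%) in replicate 2. The intervals thus overlapped in replicate 1 and did not in replicate 2. Among those other classes, promoters stood at 1.41% in replicate 1 and 1.26% in replicate 2, not below the intergenic shares. Introns stood at 0.945% and 0.837%, and coding exons at 0.0659% and 0.328%. Coding exons thus lowered the joint share of the other classes in both replicates. The intergenic sequence that the rule admits measured 19.4 Mb, or 23.5% of the autosomes, and held 153 pooled regions per Mb against 193 per Mb over the autosomes. Its thresholded regions stood at 3.20 per Mb, against 4.57 per Mb in promoters, 2.17 per Mb in introns and 0.118 per Mb in coding exons. Pooled regions of any strength were therefore less dense between genes than on the autosomes as a whole, while thresholded ones were denser than the 2.50 per Mb of all autosomal sequence.

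By chromosome, 15 of 489 intergenic regions on chromosome I were thresholded, 14 of 600 on chromosome II, 8 of 490 on chromosome III, 15 of 620 on chromosome IV and 10 of 773 on chromosome V. The shares ran between 1.29% (0.704% to 2.36%) on chromosome V and 3.07% (1.87% to 5.0%) on chromosome I, with intervals that overlapped. The outer 30% at each chromosome end held 51.6% of thresholded and 57.0% of other intergenic regions.

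A total of 1130 intergenic regions, 38.0% (36.3% to 39.8%), had a summit within 200 bp in the relaxed lists of both replicates, beside 35.4% of all pooled regions and 34.4% of the other autosomal ones. Replicate 1 had a summit for 52.9% of intergenic regions and replicate 2 for 82.2%. The share with both fell with the pooled rank, at 98.4%, 83.5%, 71.9%, 57.7%, 40.7% and 19.5% for ranks 1 to 285, 286 to 1000, 1001 to 2500, 2501 to 5000, 5001 to 10000 and beyond. The pooled list was made from both replicates and the threshold used their lists, so the first of these shares describes the selection. A total of 19 intergenic regions, 0.639% beside 0.545% of all pooled regions, ranked 285 or better in each replicate, and 18 of those were thresholded.

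Within the 62 thresholded intergenic regions the replicates ranked different regions first. Besides the 18 strong in both, 20 were among the 285 strongest in replicate 1 alone, 21 in replicate 2 alone and 3 in neither. A total of 45 had a rank of 1000 or better in both. The most uneven was the region nearest dmd-6, a DM-domain gene, with a signal value of 24.2 and rank 69 in replicate 1, and 6.53 and rank 25959 in replicate 2. It was also the weakest thresholded intergenic region, with 32.2 in the pooled list. A region nearest cmd-1, the calmodulin gene, went the other way, with 7.59 and rank 2271 in replicate 1 and 37.1 and rank 49 in replicate 2. One region, the weaker of a pair 236 bp apart nearest mrpl-20, had no replicate 2 summit within 200 bp. Spearman's rho between the signal values of the replicates was -0.217 over 61 thresholded intergenic regions, 0.155 over the 1069 others with a summit in both and 0.267 over the 1130 together, and 0.159 over 4464 other autosomal regions. These are descriptions over regions of the same libraries, and the first is over regions chosen on those values.

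**Figure D2:**
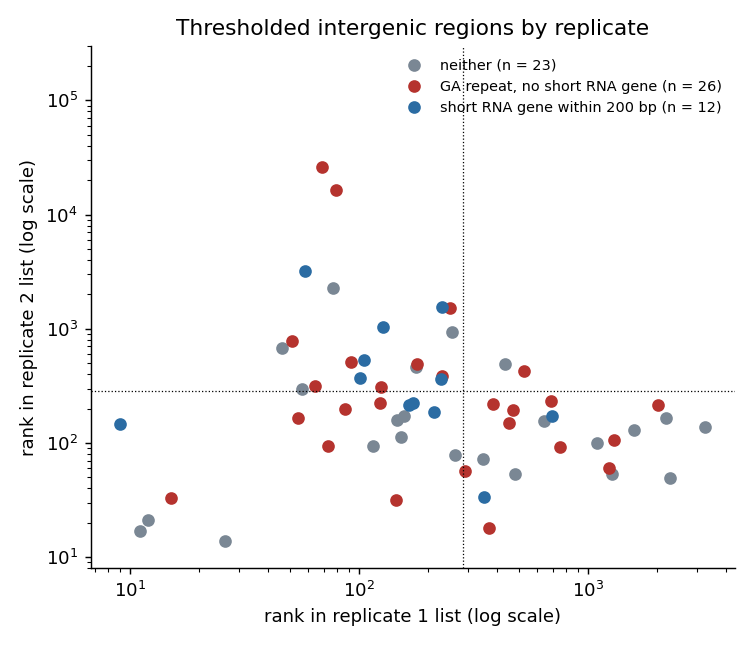
Rank in the replicate 1 list (x axis, log scale) against rank in the replicate 2 list (y axis, log scale) of the 61 thresholded intergenic regions with a summit in both; dotted lines mark rank 285. Blue points have a short RNA gene within 200 bp, red points the GA repeat but no such gene, grey points neither. The points below and left of both lines are the 18 strong in both replicates.

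The strongest intergenic region, on chromosome III at 13062452 to 13062795, had a signal value of 84.6 in the pooled list (rank 13), 36.3 in replicate 1 (rank 12) and 49.0 in replicate 2 (rank 21). It lay 7182 bp upstream of F54F12.1 and 11681 bp from the nearest 3′ end. The microRNA regions followed at ranks 14 and 15. The fourth, on chromosome V at 8784513 to 8784856 and nearest sup-37, had 75.7 in the pooled list (rank 19), 35.2 in replicate 1 (rank 15) and 41.8 in replicate 2 (rank 33). These 4 were high in both replicates, and all 4 were among the 33 strongest regions of each.

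Several regions below them, though not all, ranked much higher in 1 replicate than in the other. The region nearest T04C4.3 had 62.4 in the pooled list, 18.9 in replicate 1 (rank 145) and 42.3 in replicate 2 (rank 32). The region nearest hif-1, which encodes the hypoxia-inducible transcription factor, had 60.2 in the pooled list, 13.8 in replicate 1 (rank 369) and 50.6 in replicate 2 (rank 18). Nearest din-1, a corepressor that partners the nuclear receptor DAF-12, the values were 58.3 in the pooled list, 39.6 in replicate 1 (rank 9) and 25.5 in replicate 2 (rank 146). The hif-1 region was therefore among the strongest of replicate 2 only, and the din-1 region stood higher in replicate 1.

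The other 8 of the 15 strongest lay between 46.0 and 55.7 in the pooled list (ranks 51 to 103). Their nearest 5′ ends belonged to mrpl-51, a mitochondrial ribosomal protein gene, Y65A5A.1, ztf-6, a zinc-finger gene, pop-1, the TCF factor of Wnt signalling, C33D9.13, Y75B8A.7, kpc-1, a furin-like proprotein convertase, and ulp-4, a SUMO protease. Of these, mrpl-51 and ulp-4 were within the 285 strongest of both replicates. Replicate 1 ranked the Y75B8A.7 region 1273 and replicate 2 ranked it 54. Ranks ran the other way for C33D9.13, at 46 in replicate 1 and 677 in replicate 2.

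**Figure D3:**
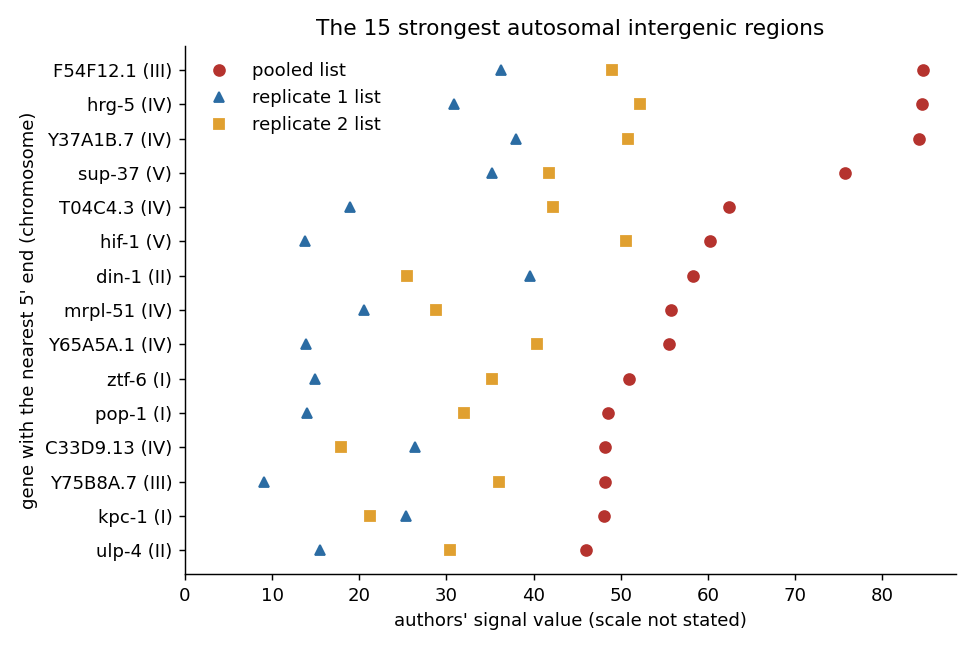
Signal value given by the authors (x axis, scale not stated) of the 15 strongest intergenic regions, named by the gene with the nearest 5′ end and its chromosome (y axis), in the pooled list (red circles), replicate 1 (blue triangles) and replicate 2 (yellow squares). The values are not on a common scale between lists. The pooled values run between 46.0 and 84.6.

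MicroRNA genes lay within 200 bp of the summit of 2 of 62 thresholded intergenic regions, against 0.412% of the other intergenic regions and 0.169% of positions spaced 50 bp apart over the eligible sequence. Both belong to the mir-51 family, which is known to act in embryonic development and in the attachment of the pharynx. The summit at mir-51 (chromosome IV, 11026013 to 11026112, minus strand) lay 90 bp upstream of the annotated gene and had 84.5 in the pooled list, 30.8 in replicate 1 (rank 26) and 52.2 in replicate 2 (rank 14). At mir-52 (chromosome IV, 14034008 to 14034107, plus strand) the summit lay inside the gene, with 84.2 in the pooled list, 38.0 in replicate 1 (rank 11) and 50.8 in replicate 2 (rank 17). Their nearest protein-coding 5′ ends belong to hrg-5 and Y37A1B.7. A second thresholded region lay 967 bp from the mir-52 summit, at rank 177, with 37.3 in the pooled list.

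The remaining genes of the family were looked up after these values were seen. The summit of an intergenic region that was not thresholded lay 120 bp from mir-53, with 25.8 in the pooled list (rank 552), rank 386 in replicate 1 and rank 388 in replicate 2. On the X chromosome, outside the intergenic set, thresholded regions of rank 21 and rank 100 lay 237 bp from mir-54 and 258 bp from mir-56. The second of these was also the nearest to mir-55, at 394 bp, and had no replicate 1 summit within 200 bp. All 3 distances exceed the 200 bp used for the other RNA genes. The other microRNA genes beside an intergenic region belonged to regions of rank 685 or weaker.

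Genes of short non-coding RNAs (tRNA, snoRNA, small nuclear RNA and ribosomal RNA) lay within 200 bp of 12 of 62 thresholded intergenic summits, 19.4% (11.4% to 30.9%), against 1.65% (1.25% to 2.18%) of the other 2910 and 0.532% of eligible positions. Without replicate 1, among the 285 strongest of replicate 2, it was 7 of 58 (12.1%), and without replicate 2 it was 12 of 57 (21.1%). With the others weighted to the GC content of the thresholded regions, their share was 3.26%. The 12 comprised 9 snoRNA genes, which guide chemical modification of ribosomal and spliceosomal RNA, 2 tRNA genes and the spliced leader gene sls-2.2, whose product is joined to the 5′ ends of many worm mRNAs. The strongest was the din-1 region, 129 bp from the snoRNA gene ZK20.9. Next was the Y65A5A.1 region, whose summit lay inside a tRNA gene, with 55.6 in the pooled list, 13.9 in replicate 1 (rank 352) and 40.4 in replicate 2 (rank 34). The remaining 10 lay between 32.3 and 43.9 in the pooled list, at distances of 4 to 95 bp. Thresholded regions of other classes had short RNA genes at 21.8% in introns, 14.3% in promoters and 11.3% on the X chromosome, so a high share was not confined to intergenic sequence.

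Genes annotated with the general class ncRNA, whose products are mostly uncharacterised, lay within 200 bp of 24 of 62 thresholded intergenic summits (38.7%, 27.6% to 51.2%), against 10.3% of the others and 4.06% of eligible positions. Pseudogenes ran the other way, at 2 of 62 (3.23%, 0.889% to 11.0%) against 12.3% of the others and 14.5% of eligible positions. The intervals of thresholded and other regions did not overlap for either kind of gene.

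The NK-2 sites TCAAGTG or TTAAGTG, searched on both strands within 100 bp of the summit, were present in 8 of 62 thresholded intergenic regions (12.9%, 6.69% to 23.4%) and in 212 of 2910 others (7.29%, 6.40% to 8.29%). Of all pooled windows of the same 201 bases 6.06% held one, and of eligible positions 4.55%. The interval of the thresholded share took in most of that of the others. Weighted to the GC content of the thresholded regions, the others stood at 6.48%. For TCAAGTG alone the others stood at 5.09% (4.35% to 5.95%) without weighting and at 4.87% with it. All of these values were below the lower bound of the thresholded interval. Whether the shares differ thus depends on the site counted and on the GC weighting. The bare core CAAGTG was present in 12 of 62 thresholded regions (19.4%, 11.4% to 30.9%) and in 11.3% of the others (10.2% to 12.5%). Among thresholded regions of the other classes the site was found in 5 of 84 promoters, 11 of 55 introns and 6 of 71 X chromosome regions. All 8 intergenic sites were TCAAGTG, and TTAAGTG was found in none of the 62.

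The printed site nearest its summit was that of hsp-12.2, a small heat shock protein gene, centred exactly on the summit of a region with 44.3 in the pooled list, 24.4 in replicate 1 (rank 64) and 21.0 in replicate 2 (rank 313). The sup-37 site was centred 13 bp away from the summit and the T24H7.9 site 14 bp away. The sites at C46F11.6, hil-7, which encodes a linker histone, and K10D11.7 lay 51, 54 and 63 bp away. The remaining pair, at ztf-6 and kpc-1, lay 3 and 15 bp from their summits. Pooled signal values of the 8 ran between 36.4 and 75.7, with a median of 43.4, beside a median of 38.4 and a range of 32.2 to 84.6 for the 54 without a site. None of the 8 had a short RNA gene within 200 bp, and 4 of them also held GAGAGAG.

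The repeat GAGAGAG, on either strand within 100 bp of the summit, was present in 28 of 62 thresholded intergenic regions, 45.2% (33.4% to 57.5%), and in 277 of 2910 others, 9.52% (8.51% to 10.6%). It was picked from a scan of 5427 sequences of 7 bases, each taken with its reverse complement, as the one whose share differed most between these sets, so its shares describe that choice and are not a test. Of all pooled windows of 201 bases 6.34% held it, and of eligible positions 3.29%. Weighted to the GC content of the thresholded regions, the others stood at 18.9%. Closely related sequences followed in the scan, AAGAGAG at 37.1% and AGAGAGA at 38.7% of thresholded regions, and these overlap GAGAGAG, while TCAAGTG came at position 53. Thresholded regions of other classes held GAGAGAG in 32.7% of introns, 23.8% of promoters and 21.1% of X chromosome regions.

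An alternating run of 10 or more bases was found in 12 of 62 thresholded intergenic regions (19.4%) and in 3.33% of the others. Every run of that length holds GAGAGAG, so these shares describe the same choice, and they were not weighted to GC content. The longest run in a thresholded region was 20 bases, at bet-1. The longest of the printed windows, at pptr-1, which encodes a regulatory subunit of protein phosphatase PP2A, was 18 bases. That region had 43.8 in the pooled list, 9.13 in replicate 1 (rank 1231) and 34.2 in replicate 2 (rank 61). Regions with GAGAGAG did not have higher pooled values within the thresholded set, with a median of 37.4 in 28 regions against 42.3 in the 34 without it. A single region had both GAGAGAG and a short RNA gene, the tRNA region near mstr-2, and 19 of 62 had none of an NK-2 site, GAGAGAG and a short RNA gene.

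These features went down the pooled ranking at different paces. Among intergenic regions of ranks 286 to 1000, just below the threshold, 27.8% held GAGAGAG, 8.27% had a short RNA gene and 8.27% an NK-2 site. Beyond rank 10000 the shares were 6.35%, 0.683% and 6.89% for the same features. All 3 shares were highest in the top class. The NK-2 share stayed between 6.13% and 12.9% over the 6 rank classes, the narrowest span of these features.

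**Figure D4:**
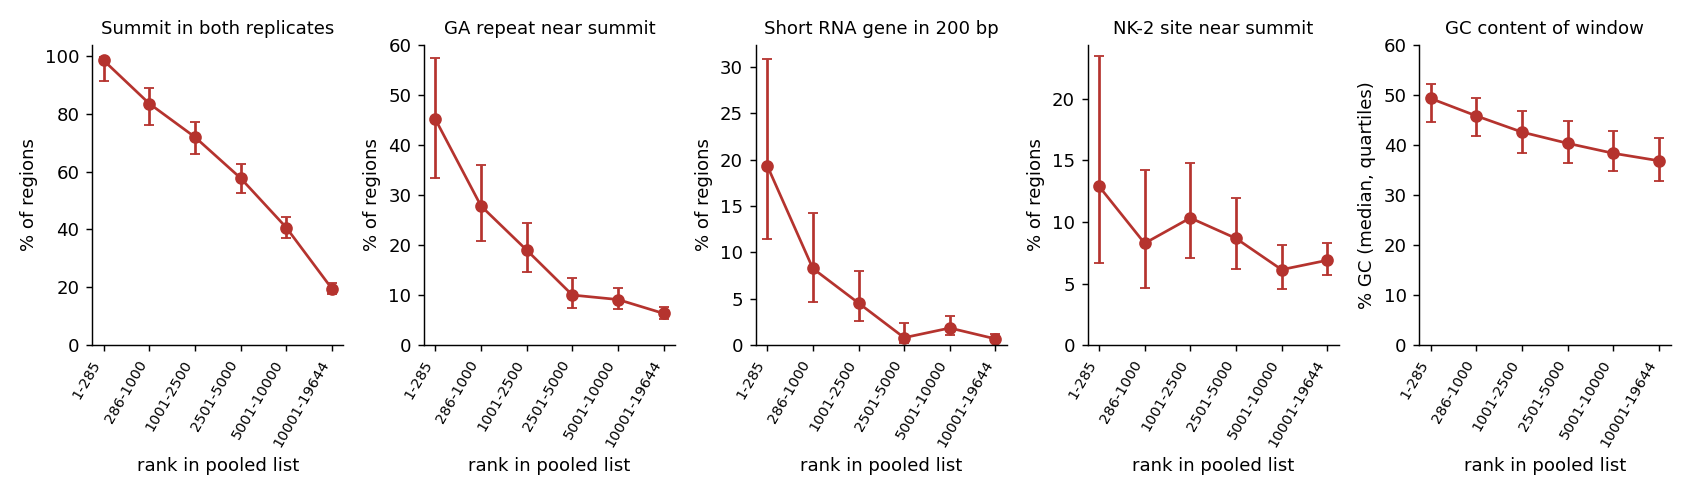
Intergenic regions by rank class in the pooled list (x axis, strongest at left): share with a summit in both replicates, with the GA repeat, with a short RNA gene within 200 bp and with an NK-2 site (y axes, %, with 95% Wilson intervals), and median GC content with quartiles (right panel, %). GA repeat shares run between 45.2% and 6.35%, and median GC content between 49.3% and 36.8%.

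Base composition moved with rank as well. The median GC content of the 201-base window was 49.3% (quartiles 44.5% and 52.1%) in thresholded intergenic regions and 38.3% in the others, against 33.8% at eligible positions. In bins of 50 bp it averaged 51.1% at the summit of thresholded regions and 39.2% at that of the others, and at 500 bp before the summit on the plus strand it was 35.4% in thresholded and 35.1% in other regions. The share with GAGAGAG in a bin was 21.0% at 50 bp on either side of thresholded summits, against 3.06% for the others. The part of GC content in the signal values was not tested. Soft-masked repeat sequence made up a median 9.95% of thresholded windows and 22.4% of the others.

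**Figure D5:**
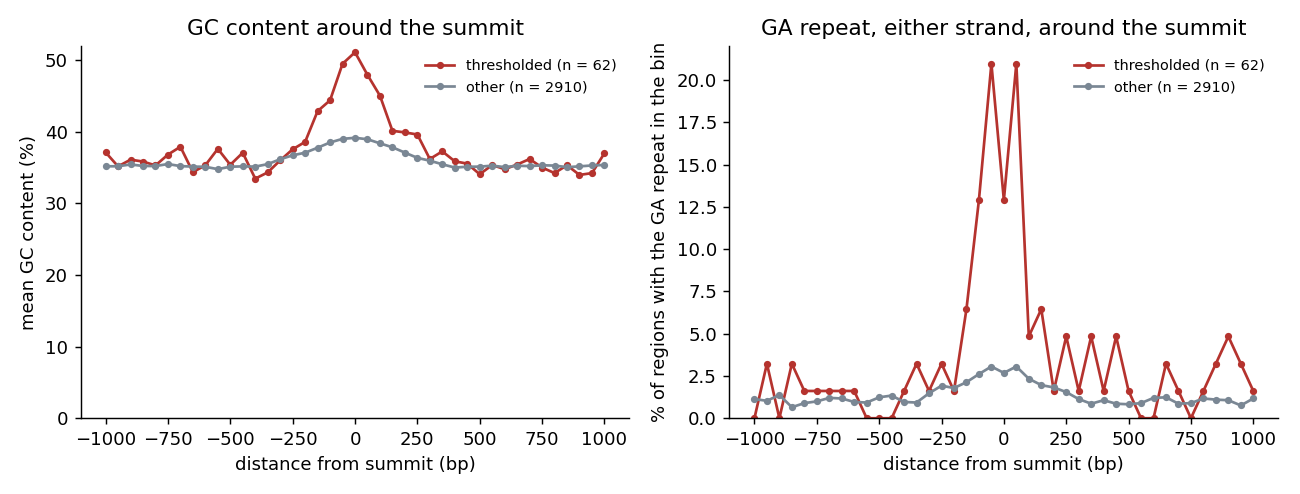
Mean GC content (left, %) and share of regions with the GA repeat (right, %) in 50 bp bins by distance from the summit (x axes, bp), for 62 thresholded (red) and 2910 other intergenic regions (grey). GC content of thresholded regions reaches 51.1% at the summit and returns to the level of the others by 500 bp.

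Distances to genes overlapped widely between thresholded and other intergenic regions. The median distance to the nearest protein-coding 5′ end was 2667 bp in thresholded regions (quartiles 1505 and 4022) and 2588 bp in the others. A 5′ end lay within 2000 bp of 40.3% of thresholded regions (29.0% to 52.7%) and 36.4% of the others, and beyond 5000 bp for 14.5% (7.83% to 25.3%) and 19.2%. The median distance to the nearest 3′ end was 4394 bp in thresholded regions (quartiles 1173 and 6121) and 3036 bp in the others. The summit lay upstream of its nearest 5′ end in 71.0% of thresholded and 71.8% of other regions.

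Spacers between divergent genes held 21 thresholded regions (33.9%), those between tandem genes 32 (51.6%) and those between convergent genes 9 (14.5%), against 31.4%, 56.7% and 11.9% of the others. Convergent spacers, which hold no 5′ end, make up 17.6% of eligible sequence. Of the 9 thresholded regions there, 6 had a short RNA gene within 200 bp, against 10 of 345 others (2.90%). The other 3 convergent regions were that at mir-51 and both near mir-52.

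The most remote thresholded summit, at 16237 bp from any 5′ end, lay nearest Y23H5B.5 and 60 bp from a snoRNA gene, with 42.0 in the pooled list, 18.3 in replicate 1 (rank 165) and 22.9 in replicate 2 (rank 214). Next were the regions at mir-52, at 10709 and 9742 bp. At the upstream limit of 1000 bp, the nearest inside the set lay 1001 bp upstream of egl-44 (9.68 in the pooled list). Next were regions 1002 bp upstream of cec-8 (13.6) and 1002 bp upstream of C50C3.12 (9.50). Downstream of a 5′ end the rule excludes 200 bp only, and the smallest distance of any intergenic region to a 5′ end was 266 bp. Just outside, in the promoter class, were regions upstream of npr-37 (15.5, 999 bp), Y110A2AL.4 (9.76, 999 bp) and sgn-1 (17.3, 998 bp), and none of these 6 was thresholded.

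With overlapping regions counted, thresholded intergenic regions more often had another pooled summit nearby, which need not be a separate site. Pooled regions were up to 344 bp wide, so summits closer than that belong to overlapping regions. Many of the summits near thresholded regions were that close, and the shares below were not recounted without them. Whether separate regions differ in this was therefore not tested. Examples are the summit 199 bp from that nearest Y75B8A.7 and the pair 236 bp apart nearest mrpl-20. The share over all pooled regions is not given here. Another pooled summit lay within 1000 bp of 30 of 62 (48.4%, 36.4% to 60.6%) and of 813 of 2910 others (27.9%, 26.3% to 29.6%). Of the 62, 7 had a second thresholded summit in that distance.

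Gene lists of pharynx, muscle and other tissues were set beside the nearest genes. The 62 thresholded regions had 59 nearest genes, and 1 of them (1.69%) was in any of 8 lists with 117 genes in all, against 22 of the 2089 genes nearest any intergenic region (1.05%). Of 17242 autosomal protein-coding genes, 93 (0.539%) are in a list, and X-linked list genes lie outside the set by rule. The 1 gene was act-1, an actin gene of the contractile list. Its region, on chromosome V at 11083649 to 11083992, lay 2769 bp downstream of the 5′ end and 1406 bp from the 3′ end, held GAGAGAG, and had 45.2 in the pooled list (rank 107), 25.6 in replicate 1 (rank 54) and 24.5 in replicate 2 (rank 166). None of the autosomal genes of pharyngeal muscle (11 of 12 listed), pharyngeal transcription factors (10 of 12), body wall muscle (13 of 20), intestine (7 of 10), epidermis (8 of 12), neurons (13 of 15) or cytosolic ribosomal proteins (20 of 20) was nearest to a thresholded intergenic region. With 0.539% of autosomal genes listed and 59 nearest genes, an empty list does not show that its genes are avoided.

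Over all 2972 intergenic regions, 10 were nearest 6 of the 12 autosomal contractile genes (17 listed). Another 5 were nearest 4 of 10 autosomal pharyngeal transcription factor genes, and 2 were nearest 2 of 11 autosomal pharyngeal muscle genes. Of all 17242 autosomal protein-coding genes, 2089 were nearest an intergenic region. The strongest of the factor group lay 3819 bp upstream of pha-4, the FoxA factor that specifies the pharynx, with 25.9 in the pooled list (rank 548), rank 3021 in replicate 1 and rank 415 in replicate 2. For pharyngeal muscle the best rank was 1222. No intergenic region was nearest a gene of the intestine list, of which 7 are autosomal. When flanking genes of the spacer were also counted, 2 intergenic regions lay beside such a gene. The nearest 5′ end does not show which gene a region acts on.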

How the data were processed

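The data were narrowPeak lists of 2 ChIP-seq replicates on build ce11. Per the labels and file listing, the authors made a relaxed list of 30000 regions for each replicate against a control, a pooled relaxed list from both replicates, and a thresholded list by IDR. Which aligner and peak caller were run, and in which version, is not given in the sources used here. Each region's deposited signal value is a score of unstated scale, used here for ranks and description within a list. The authors' −log10 q, at 1.35 to 1.82 for thresholded regions, entered no test. Over the whole pooled list it ran down to 0.0175, as the list holds background by its label. The lists hold no read counts, so the depth is unknown. Lists on build ce10 were not used.

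Summits were assigned to Ensembl release 115 genes with Python 3.11.15, numpy 2.4.6, pandas 2.3.3 and scipy 1.17.1, and the code was tested on simulated regions and sequences. Windows were the summit with 100 bp on each side. Shares carry 95% Wilson intervals, which cover counting error only. GC weighting used bins of 5 percentage points. Regions were named by a rule: the 15 strongest, every thresholded region with an NK-2 site or nearest a listed gene, the 3 most remote and the 3 on each side of the 1000 bp limit, with the genes next to them. Other named regions were chosen after their values were seen. The members and lists were chosen with earlier results of these data known.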

Additional observations from a re-analysis of the deposited data

How the results depend on the processing

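Beside the other autosomal regions, coding exons always included, the share of intergenic regions in the thresholded list was higher in all 8 alternatives. It was 0.908% for the stronger part of the list (ranks to 142), 1.17% to 1.25% when a replicate was left out, and lay between 1.72% and 2.23% under both other promoter windows and with the spans of other annotated genes, regions near short RNA genes or 40 kb around ceh-22 and unc-119 taken out. The first of these values is lower because fewer regions count, and the replicate lists hold more regions. The share with a summit in both replicates was 15.2% within 50 bp, 26.5% within 100 bp, 50.7% within 500 bp and 46.5% for any overlap of 1 bp, and needing a single replicate it was 52.9% to 82.2%. The median 5′ distance was 1850 bp with the promoter window at 500 bp upstream and 3336 bp at 2000 bp, as the rule sets it. Its order against the other regions held in 2 of 5 alternatives, so it shows no direction. The 3′ median (4043 to 4663 bp), the NK-2 share (8.06% to 19.4%) and the short RNA share (12.1% to 22.6%) stayed above the others' values in every alternative run, and the convergent share in 4 of 5. These alternatives largely reuse the same regions, and the main interval of the 3′ median took in the others' value. Alternatives for GAGAGAG were added after the data were seen, and gave 33.3% in the stronger part of the list and 32.8% to 40.4% with a replicate left out, 54% without regions near short RNA genes, and 36.6% and 43.2% under the other promoter windows. Counting flanking genes also left 1 listed gene. No paired analysis was possible because the 2 replicates form 1 group. With 62 thresholded regions and no read counts, only large differences in share can be seen.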

Other observations

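Some thresholded intergenic regions outside the naming rule were picked here after their values were seen, and their nearest genes are no evidence of a theme. The first lay nearest egl-9, the prolyl hydroxylase that marks HIF-1 for degradation. That region had a pooled signal value of 33.5 (rank 250), 7.89 in replicate 1 (rank 2020) and 22.9 in replicate 2 (rank 215), so it was high in replicate 2 only. It held GAGAGAG.

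Further thresholded regions lay nearest genes of muscle, the cytoskeleton or G protein signalling that were in none of the lists. These were jph-1, the junctophilin gene (40.2 in the pooled list, rank 756 in replicate 1 and rank 93 in replicate 2), eps-8, an actin regulator (40.8 in the pooled list, rank 92 in replicate 1 and rank 517 in replicate 2), and gpb-1, a G protein beta subunit gene (42.1 in the pooled list, rank 51 in replicate 1 and rank 777 in replicate 2). The longest alternating run of G and A in any intergenic region that was not thresholded was 117 bases.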
